A study of Mus musculus with 12 samples.

Results

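Dendritic cell genes were read from whole lungs of 12 C57BL6/J mice, 1 library per mouse. The 8 genes, of 23127 in the deposited table, were taken by name: Flt3 and Zbtb46 for conventional dendritic cells as a whole, Xcr1, Clec9a and Itgae for type 1 cells (cDC1), Cd209a and Clec10a for type 2 cells (cDC2), and Siglech for plasmacytoid cells. All 8 passed the filter on low values, a mean of at least 1 CPM (reads of a gene scaled to a library total of 1000000) over the 12 libraries, which 15562 genes passed. The groups were 4 controls at 0 weeks, 4 mice given L-NAME and a high fat diet for 2 weeks, and 4 given both for 5 weeks. L-NAME, an inhibitor of nitric oxide synthases, was in the water at 0.5 g/L, and 60% of the diet was lipid. The 2 agents were always given together, so their shares cannot be told apart, and the labels used here give neither age nor the controls' diet. Replicate numbers below only name a mouse. A single-cell experiment described for the same study was not analysed here.

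Dendritic cells take up antigen and present it to T cells. Conventional dendritic cells grow from marrow precursors under FLT3 ligand; the cDC1 branch depends on the transcription factors IRF8 and BATF3 and is known for presenting material from dead cells to CD8 T cells, while the cDC2 branch leans on IRF4 and primes CD4 T cells. Plasmacytoid dendritic cells are instead known for making type I interferon in response to viral nucleic acid. In the lung, cDC1 lie in and under the airway epithelium and carry the integrin chain encoded by Itgae.

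Each library held 25900000 to 34000000 reads, estimated from the step between low CPM values, and its 10 highest genes took 7.47% to 9.89% of the total. The 9 lung epithelial and endothelial markers summed to between 37530 and 52030 CPM in every library. Some libraries stood apart on markers of other cells. The 12 alveolar macrophage markers summed to 518, 572, 520 and 1057 CPM in the 2-week mice and 1032, 933, 563 and 1040 CPM in the controls, so 2-week replicate 4 and control replicate 3 each lay near the other group. The 5-week mice held 900 to 1141 CPM of these markers. The 6 adipocyte markers summed to 1435 CPM in control replicate 2 and to at most 131 CPM in any other library, and the 7 red cell markers to 16210 CPM in 5-week replicate 3 and at most 4490 CPM elsewhere. Some of the differences below are also given without one or more of these libraries.

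Clec9a stood highest of the 8 genes and Xcr1 lowest in whole lung. Other cells or neighbouring genes may add to such levels, as given below for Zbtb46 and Clec9a. Per kilobase of exon, and over all 12 libraries, Clec9a averaged 11.95 ± 1.77 CPM (SD, n = 12). Cd209a followed at 5.98 ± 1.04 CPM per kilobase and Zbtb46 at 5.49 ± 0.67. Clec10a averaged 2.07 ± 0.93 CPM per kilobase, Itgae 1.59 ± 0.37, Flt3 1.09 ± 0.26, Siglech 0.988 ± 0.290 and Xcr1 0.946 ± 0.195. The lowest Clec9a library (9.38 CPM per kilobase) lay above the highest Cd209a library (8.20). All other neighbours in this order overlapped in range, Zbtb46 and Clec10a only through control replicate 2. With the longest transcript as the length, Zbtb46 (8.80 CPM per kilobase) came before Cd209a (6.39) and the rest of the order stayed.

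**Figure D1:**
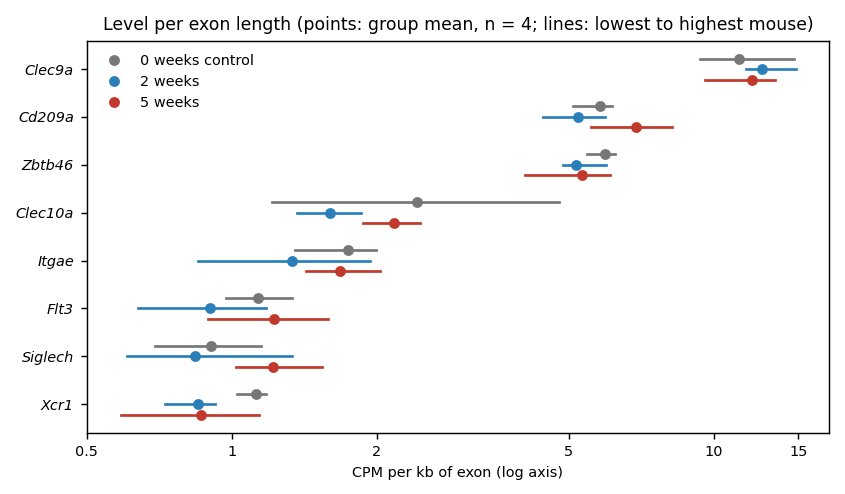
Level of each dendritic cell gene in CPM per kilobase of exon on a log axis. Points are group means (n = 4 mice) and lines run from the lowest to the highest mouse. Clec9a averaged 11.95 CPM per kilobase over the 12 libraries, and Flt3, Siglech and Xcr1 lay near 1 CPM per kilobase with overlapping ranges.

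No dendritic cell gene passed the test in any comparison. limma on log2(CPM + 1), with Benjamini-Hochberg adjustment over all 15562 genes, called 0 of the 8 at an adjusted p under 0.05 in the 2-week against control, 5-week against control and 5-week against 2-week comparisons, where it also called 0% of all genes. Before adjustment, 1 of the 8 had p under 0.05 at 2 weeks against control (9.24% of all genes), 1 at 5 weeks against control (8.63%) and 2 at 5 weeks against 2 weeks (10.9%). A set of 8 genes is too small to set these counts apart from the shares over all genes. In a test of any difference among the 3 groups the call was again 0 of 8 and 0% of all genes, with 10.8% of genes at an unadjusted p under 0.05. In whole lung, fewer cells of a type and less RNA per cell cannot be told apart.

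The means of the 8 genes leaned differently in the 3 comparisons. In these counts, here and below, a lower or higher mean is that of log2(CPM + 1). Mean CPM went the other way for Clec10a at 5 weeks against control (6.29 against 7.04). It also did for Xcr1 at 5 weeks against 2 weeks (3.85 against 3.79). At 2 weeks against control 7 of the 8 had the lower mean (44.9% of all genes) and the median log2 difference was -0.25, against 0.02 over all genes tested. Markers of several other cells leaned with them. The lower mean was seen in 10 of 12 alveolar macrophage (median -0.56), 9 of 11 interstitial macrophage, 8 of 10 monocyte and 9 of 11 T cell markers. B cell and NK cell markers did not lean this way: 2 of 8 and 3 of 8 had the lower mean (medians 0.20 and 0.02). Of all these markers 0 passed. At 5 weeks against control 3 of the 8 had the lower mean (45% of all genes), with a median of 0.05 against 0.02. At 5 weeks against 2 weeks 2 of the 8 had the lower mean (49.8% of all genes), with a median of 0.34 against 0.00. There 12 of 12 alveolar macrophage (median 0.73), 7 of 7 neutrophil (1.56), 11 of 11 T cell, 8 of 8 NK cell and 8 of 8 B cell markers tested had the higher mean, again with 0 calls. The part of these cells in the lean of the dendritic cell genes was not tested. Each pair of these comparisons shares 1 group of mice. The 8 genes are not independent of each other, and their medians carry no test.

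**Figure D2:**
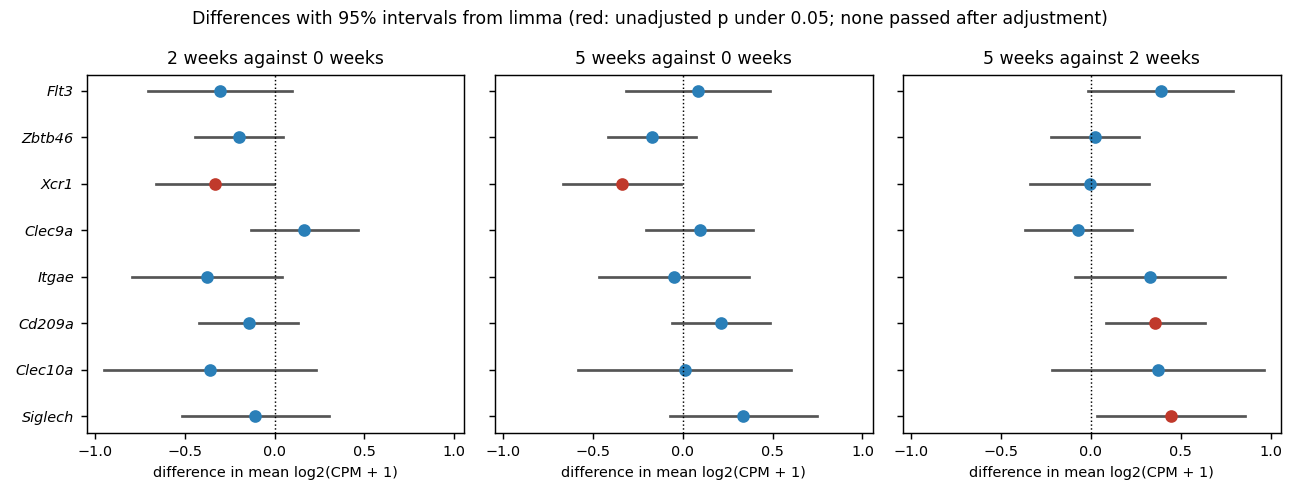
Difference in mean log2(CPM + 1) for each dendritic cell gene in the 3 comparisons, with 95% confidence intervals from limma. Intervals that miss 0 are those of Xcr1 in both comparisons with controls and of Cd209a and Siglech at 5 weeks against 2 weeks, and none of these passed adjustment over all genes.

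Flt3 encodes the receptor tyrosine kinase for FLT3 ligand, through which dendritic cell precursors and mature cells receive their growth signal. It is ENSMUSG00000042817, placed by the deposited table on chromosome 5 from 147267551 to 147337299, minus strand. The table does not name its build, and its positions for all 8 genes differ from those of GRCm38. Flt3 had 8.23, 6.02, 6.27 and 7.48 CPM in the controls, 3.96, 4.71, 6.37 and 7.27 CPM in the 2-week mice, and 8.30, 5.53, 6.71 and 9.78 CPM in the 5-week mice. All 3 groups overlapped, and the 2 lowest values were both from 2-week mice. The log2 difference was -0.30 ± 0.19 (SE) at 2 weeks against control (limma adjusted p = 0.62), 0.08 ± 0.19 at 5 weeks against control (adjusted p = 0.899), and 0.39 ± 0.19 at 5 weeks against 2 weeks (adjusted p = 0.477). The 2-week difference from control lay between -0.42 and -0.18 as single libraries were left out. The 95% interval at 5 weeks against control ran from -0.32 to 0.49. The ligand gene, Flt3l, averaged 27.7 ± 2.03 CPM in 2-week mice, 23.8 ± 4.06 CPM in 5-week mice and 27.1 ± 3.72 CPM in controls (SD, n = 4 each), and did not pass in any comparison.

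Zbtb46 encodes a zinc finger transcription factor that marks conventional dendritic cells among blood cells, and it is also made by endothelial cells, which are abundant in lung. The table places it (ENSMUSG00000027583) on chromosome 2 from 181029555 to 181101219, minus strand. It had 46.5, 52.0, 51.2 and 53.0 CPM in the controls, 41.5, 50.9, 41.6 and 42.7 CPM in the 2-week mice, and 45.9, 48.7, 34.6 and 51.9 CPM in the 5-week mice. Of the 2-week mice 3 lay below every control, and replicate 2 lay among the controls. The lowest value of all was 5-week replicate 3. The log2 difference was -0.20 ± 0.11 at 2 weeks (adjusted p = 0.601) and -0.17 ± 0.11 at 5 weeks (adjusted p = 0.68) against control by limma. Without 5-week replicate 3 the 5-week difference was -0.05.

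Of the 6 members with a promoter in the RefSeq table, Zbtb46 and Cd209a hold a match to any of 4 motifs searched on both strands, and theirs are shown for that reason. The motifs, each a known binding pattern in immune cells, were GAAA, any 2 bases and GAAA (interferon response element), GGAA, any 2 bases and GAAA (an ETS and IRF composite), TGANTCA (AP-1) and AGGAAGT (ETS). They occur in 3.44%, 2.72%, 7.81% and 9.35% of all 32851 promoters of the same length. The Zbtb46 promoter is GRCm38.p6 chr2:181424339-181424638, minus strand, printed 5′ to 3′ from 250 bases before the RefSeq start to 50 after it, with the TGANTCA match in capitals. This RefSeq start lies 35038 bases inside the annotated GRCm38 gene, so the window is an internal start and not the outer 5′ end of Zbtb46.
Zbtb46: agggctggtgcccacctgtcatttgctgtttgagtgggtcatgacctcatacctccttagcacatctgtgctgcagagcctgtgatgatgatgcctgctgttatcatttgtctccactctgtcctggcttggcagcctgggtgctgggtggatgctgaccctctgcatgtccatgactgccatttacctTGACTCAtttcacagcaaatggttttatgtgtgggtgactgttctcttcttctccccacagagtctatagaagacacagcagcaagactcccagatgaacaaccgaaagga
The match begins 61 bases before that internal start. It describes letters, not binding.

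Xcr1, the cDC1 chemokine receptor for XCL1, was the only member whose 2-week and control values did not overlap. It lies on chromosome 9 from 123681380 to 123691094, minus strand, in the deposited table (ENSMUSG00000060509). The 5′ end of Fyco1, on the same strand, is 415 bases away. Xcr1 had 3.24, 3.95, 3.84 and 4.12 CPM in the 2-week mice, against 5.24, 5.26, 4.57 and 4.95 CPM in the controls. Every 2-week value lay below every control value, which 1.95% of all genes also showed in this direction. Means were 3.79 ± 0.382 CPM in 2-week mice and 5.01 ± 0.322 CPM in controls (SD, n = 4 each). The log2 difference was -0.33 ± 0.15, with an unadjusted limma p of 0.0496 and an adjusted p of 0.54, and adjusted p lay between 0.272 and 0.836 over the alternatives tried. The two-sided exact permutation p was 0.0286, the smallest that 4 mice against 4 can give, 1 of 24 such tests over the 8 genes and 3 comparisons.

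At 5 weeks Xcr1 had 3.23, 4.49, 2.62 and 5.07 CPM, which spanned the 2-week range on both sides and reached into the control range. The mean, 3.85 ± 1.12 CPM against 5.01 ± 0.322 CPM in controls, gave a log2 difference of -0.34 ± 0.15 (unadjusted limma p = 0.0458, adjusted p = 0.575, exact permutation p = 0.114). The 5-week spread was wide, and replicate 3, the library of highest red cell markers, was the lowest. Without it the difference was -0.21. The difference at 5 weeks against 2 weeks was -0.01 ± 0.15 (limma adjusted p = 0.994), and its sign changed under 4 settings other than leaving out 1 library.

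Clec9a encodes the lectin with which cDC1 recognise exposed actin of dead cells, and it did not follow Xcr1. The table places it (ENSMUSG00000046080) on chromosome 6 from 129385825 to 129401726, plus strand. It had 35.9, 30.9, 48.2 and 33.7 CPM in the controls, 38.9, 39.5, 48.8 and 38.5 CPM in the 2-week mice, and 41.8, 40.3, 31.6 and 44.2 CPM in the 5-week mice. The 3 groups overlapped, and 2-week and control mice each had 1 library near 48 CPM. The log2 difference was 0.17 ± 0.14 at 2 weeks (95% interval -0.13 to 0.46, limma adjusted p = 0.695) and 0.09 ± 0.14 at 5 weeks (-0.20 to 0.39, adjusted p = 0.846) against control. Without control replicate 3 these were 0.30 and 0.22, and without control replicate 2 they were 0.09 and 0.02. Over the 12 libraries Clec9a and Xcr1 had a Pearson r of 0.01 on log2(CPM + 1).

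The ratio of Clec9a to Xcr1 in CPM was 12.01, 9.999, 12.7 and 9.35 in the 2-week mice and 12.96, 8.98, 12.1 and 8.72 in the 5-week mice, against 6.84, 5.88, 10.6 and 6.80 in the controls. Control replicate 3, which also had few alveolar macrophage reads, lay among the treated mice, and the other 3 controls lay below all 8 treated mice. This ratio was chosen after its values were seen and carries no test. Clec9a also has close neighbours: its span in the table ends 8 bases before that of Clec1a, a convergent lectin gene of 138 to 176 CPM, and shares 474 bases with that of Clec1b. Clec1b lies on the same strand as Clec9a, so counting by strand would not part their reads in the shared bases. Clec1a lies on the other strand. Whether the counting used strand is not stated, so its reads may not be fully apart from those of Clec9a either.

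Itgae encodes CD103, the αE integrin chain that pairs with the β7 chain to bind E-cadherin, on lung cDC1 and also on resident T cells. It lies on chromosome 11 from 72981409 to 73038272, plus strand, in the table (ENSMUSG00000005947), and its span holds the whole span of Haspin on the other strand. Itgae had 9.11, 8.38, 6.19 and 8.27 CPM in the controls, 3.89, 6.38, 5.25 and 8.87 CPM in the 2-week mice, and 6.61, 6.53, 8.34 and 9.32 CPM in the 5-week mice. The groups overlapped. The highest 2-week value came from replicate 4 and the lowest control value from replicate 3, the libraries whose alveolar macrophage markers lay near the other group. The log2 difference at 2 weeks against control was -0.38 ± 0.19 (limma adjusted p = 0.576) and -0.65 without those 2 libraries (adjusted p = 0.0814), a setting chosen after seeing the data. Leaving out the highest 2-week and the lowest control value was bound to widen this difference. At 5 weeks against control it was -0.05 ± 0.19 (95% interval -0.47 to 0.37, adjusted p = 0.951), and -0.15 without control replicate 3. The gene of its partner, Itgb7, averaged 37.8 ± 5.66 CPM in 5-week mice and 29.3 ± 3.61 CPM in controls, and did not pass (log2 difference 0.35 ± 0.15, adjusted p = 0.554).

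**Figure D3:**
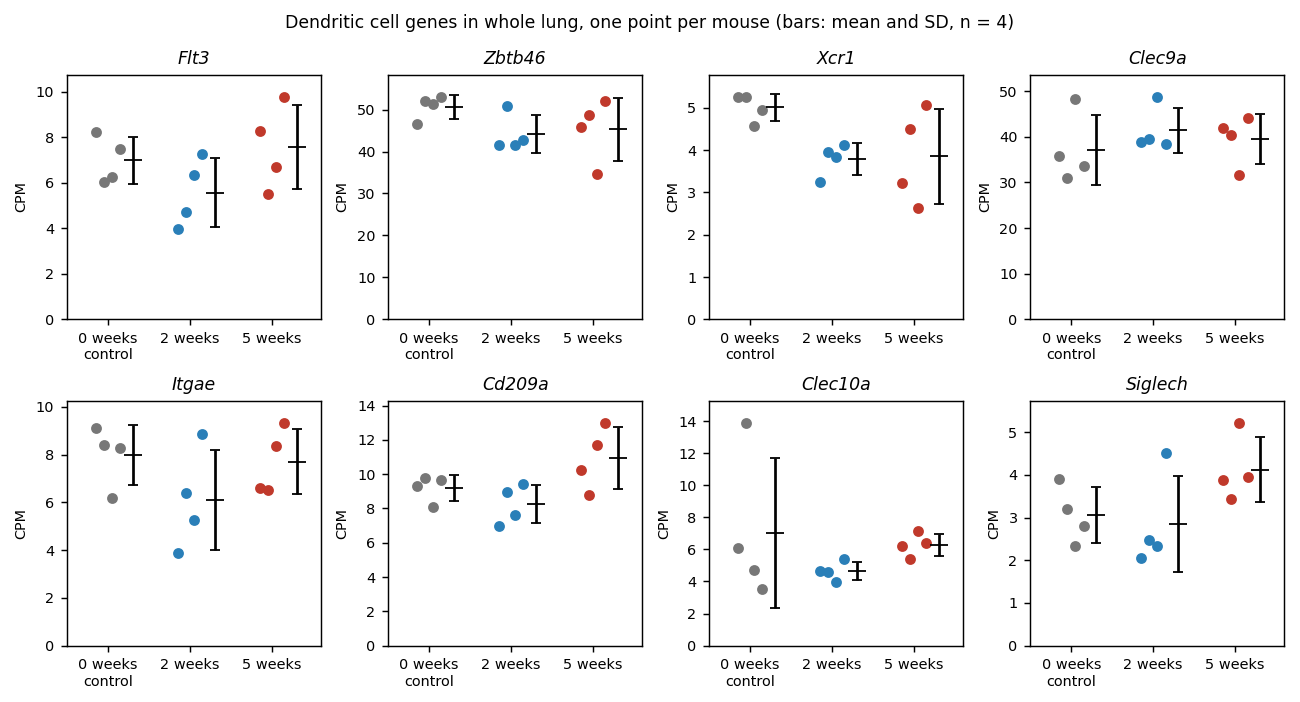
CPM of each dendritic cell gene, 1 point per mouse, in the control, 2-week and 5-week groups, with the group mean and SD. Xcr1 in 2-week mice (3.24 to 4.12 CPM) lies below every control (4.57 to 5.26 CPM), and Clec10a reaches 13.9 CPM in 1 control.

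Cd209a, a lectin of the DC-SIGN family that marks cDC2 and monocyte-derived dendritic cells, had its highest values at 5 weeks. The table places it (ENSMUSG00000031494) on chromosome 8 from 3793397 to 3798984, minus strand. It had 9.31, 9.75, 8.08 and 9.69 CPM in the controls, 7.01, 8.98, 7.65 and 9.43 CPM in the 2-week mice, and 10.2, 8.79, 11.7 and 12.98 CPM in the 5-week mice. Of the 5-week mice 3 lay above all the other 8 mice, and replicate 2 lay among them. Means were 10.9 ± 1.81 CPM in 5-week mice and 8.27 ± 1.13 CPM in 2-week mice (SD, n = 4 each), a log2 difference of 0.36 ± 0.13 (unadjusted limma p = 0.0139, adjusted p = 0.336, exact permutation p = 0.0857). Against controls, at 9.21 ± 0.775 CPM, the 5-week difference was 0.22 ± 0.13 (limma adjusted p = 0.657) and the 2-week difference -0.14 ± 0.13 (adjusted p = 0.71), which lay between -0.20 and -0.08 as single libraries were left out. Of the 8 genes it had the lowest p for any difference among the 3 groups, 0.042, with a limma adjusted p of 0.445.

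Cd209a followed other cells' markers across libraries. Its Pearson r over the 12 libraries was 0.88 with the mean of 10 monocyte markers. It was 0.81 with that of 12 alveolar macrophage markers and 0.81 with that of the 7 neutrophil markers tested. Of the 7 neutrophil markers tested, 7 had an unadjusted limma p under 0.05 (10.9% of all genes, either direction) and a higher mean at 5 weeks against 2 weeks. None passed adjustment. Their part in the Cd209a values was not tested. The Cd209a promoter is GRCm38.p6 chr8:3748935-3749234, minus strand, 5′ to 3′. Its match to the ETS and IRF composite, read on the opposite strand, is in capitals and runs over the start, from 9 bases before it.
Cd209a: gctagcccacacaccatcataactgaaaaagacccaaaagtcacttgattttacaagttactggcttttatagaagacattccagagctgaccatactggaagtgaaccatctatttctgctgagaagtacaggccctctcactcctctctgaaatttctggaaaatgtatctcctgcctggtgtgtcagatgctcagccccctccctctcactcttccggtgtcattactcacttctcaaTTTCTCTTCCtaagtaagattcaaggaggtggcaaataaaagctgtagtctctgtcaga

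Clec10a encodes a galactose-type lectin of cDC2 and macrophages, and 1 control decided its comparisons with controls. The table places it (ENSMUSG00000000318) on chromosome 11 from 70047023 to 70061660, plus strand. It had 6.06, 13.9, 4.72 and 3.51 CPM in the controls, 4.65, 4.57, 3.97 and 5.38 CPM in the 2-week mice, and 6.23, 5.42, 7.12 and 6.39 CPM in the 5-week mice. The 13.9 CPM came from control replicate 2, the library with 1435 CPM of adipocyte markers and the most interstitial macrophage markers (1946 CPM, against 1361 to 1456 CPM in the other controls). Their part in the value was not tested. The log2 difference from control was -0.36 ± 0.27 at 2 weeks (limma adjusted p = 0.675) and -0.01 without that library. At 5 weeks it was 0.01 ± 0.27 (adjusted p = 0.992) and 0.36 without it, and its sign turned under several settings, median-of-ratios and quantile scaling among them.

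Every 5-week value of Clec10a lay above every 2-week value, which 2.38% of all genes also showed in this direction. Means were 6.29 ± 0.697 CPM in 5-week mice and 4.64 ± 0.578 CPM in 2-week mice (SD, n = 4 each), a log2 difference of 0.37 ± 0.27 (limma adjusted p = 0.67). Its standard error carries the spread of the controls, since the 3 groups share 1 estimate. The exact permutation p was 0.0286, the smallest possible here and the only other of the 24 tests to reach it. Mgl2, the closely related second mouse gene of this lectin, averaged 22.3 ± 1.501 CPM in 5-week mice and 18.3 ± 2.50 CPM in 2-week mice and did not pass (log2 difference 0.28 ± 0.15, adjusted p = 0.542). Reads that match both genes could have been counted for either. In control replicate 2, Cd209f and Cd209b, relatives of Cd209a, were also high, at 12.1 and 4.11 CPM, against at most 3.78 and 1.84 CPM in the other controls.

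Siglech encodes a sialic acid-binding receptor of plasmacytoid dendritic cells, also made by microglia and some macrophages. The table places it (ENSMUSG00000051504) on chromosome 7 from 55417926 to 55428673, plus strand. It had 3.90, 3.20, 2.34 and 2.81 CPM in the controls, 2.06, 2.47, 2.34 and 4.52 CPM in the 2-week mice, and 3.88, 3.45, 5.21 and 3.95 CPM in the 5-week mice. Of the 2-week mice 3 lay below every 5-week mouse, and replicate 4 lay among the 5-week mice. The log2 difference was 0.44 ± 0.19 at 5 weeks against 2 weeks (unadjusted limma p = 0.0359, adjusted p = 0.424, exact permutation p = 0.114). It was 0.34 ± 0.19 at 5 weeks against control (adjusted p = 0.645) and -0.11 ± 0.19 at 2 weeks against control (adjusted p = 0.86). The last of these was -0.29 without 2-week replicate 4, -0.20 without control replicate 3 and -0.01 without 2-week replicate 1.

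Without 2-week replicate 4 and control replicate 3, the 5-week against 2-week difference in Siglech was 0.63, with a limma adjusted p of 0.0408. Replicate 4 held the highest 2-week Siglech value, so leaving it out was bound to widen this difference. Leaving out these 2 libraries was the only setting under which limma called any of the 8 genes, and it was chosen after seeing the data. It also called many genes outside the 8, counted at the end, where the fit to all 12 libraries called 0%. Before adjustment, 2673 of 15583 genes had a limma p under 0.05 in it, against 1696 of 15562 in the fit to all 12. Adjusted p for Siglech ranged from 0.0408 to 0.769 over the alternatives. Siglech ran closely with markers of many leukocytes. Its Pearson r over the 12 libraries was 0.97 with the mean of the 11 T cell markers tested. It was 0.91 with monocyte, 0.90 with NK cell, 0.90 with neutrophil, 0.89 with B cell and 0.87 with alveolar macrophage markers. All 12 T cell markers summed to 38.0 to 70.4 CPM in 2-week mice, with replicate 4 the highest. The sum was 59.9 to 94.3 CPM in 5-week mice, with replicate 3 the highest, and 38.4 to 67.4 CPM in controls. The part of these cells in the Siglech values was not tested.

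**Figure D4:**
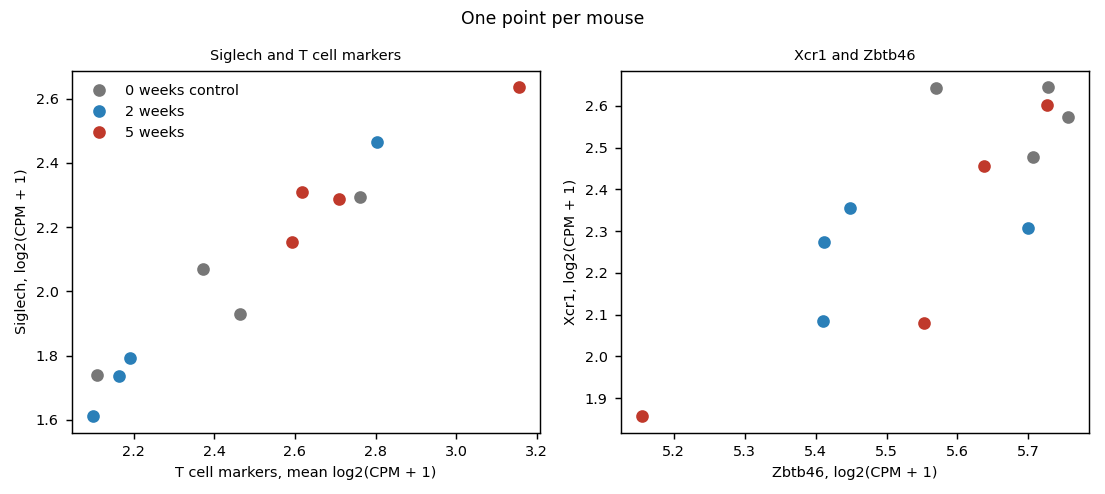
Siglech against the mean of the 11 T cell markers tested, and Xcr1 against Zbtb46, each in log2(CPM + 1) with 1 point per mouse. Siglech and the T cell mean have r = 0.97 over the 12 libraries, and Xcr1 and Zbtb46 have r = 0.81.

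Across the 12 libraries the 8 genes did not move as 1 group. Xcr1 and Zbtb46 had r = 0.81 (Spearman rho 0.79), and both were lowest in 5-week replicate 3. Itgae, Cd209a and Siglech had r between 0.76 and 0.80 with one another, and Flt3 had r = 0.75 with Itgae and 0.72 with Cd209a. These are descriptions over libraries that also share group, depth and cell content.

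**Figure D5:**
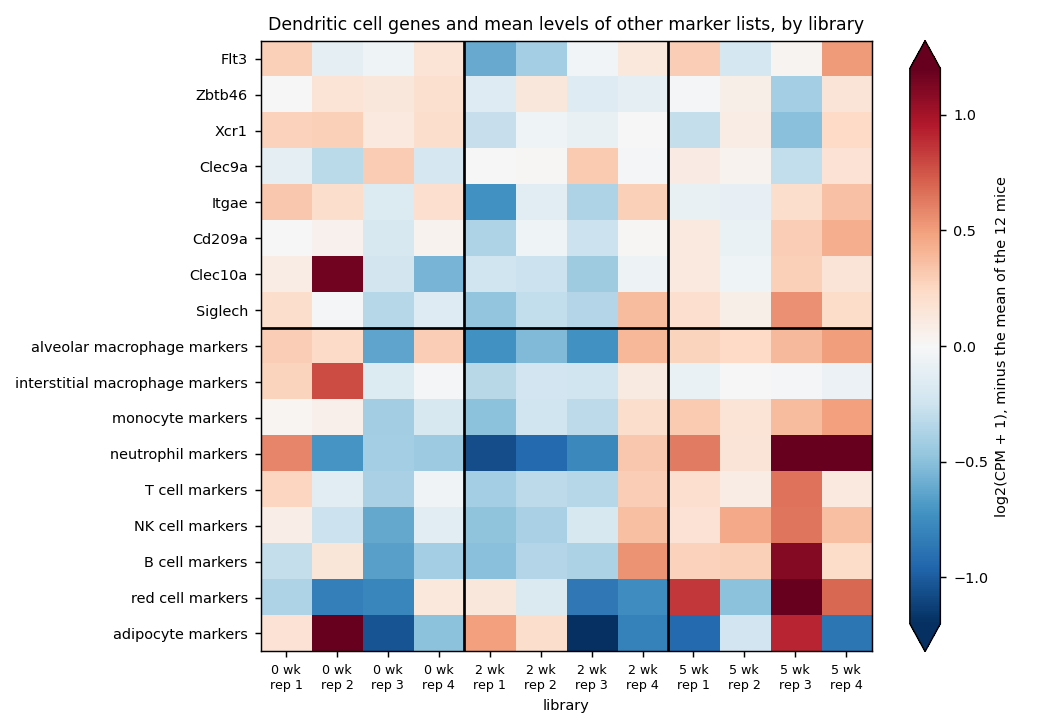
Dendritic cell genes and markers of other cell types in each of the 12 libraries, as log2(CPM + 1) minus the mean of the 12 mice, with colours ending at 1.2 on either side. In 2-week replicate 4 Siglech and Itgae lie above their mean, as do alveolar macrophage and T cell markers, while Cd209a and Clec9a lie near theirs.

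The genes most like each member, by Pearson r of log2(CPM + 1) over the 12 libraries, differed between members. Among those nearest to Siglech were Coro1a (0.98) and Arhgap15 (0.98). Itgae was nearest to Cxcr3 (0.92), Sh2d2a (0.92) and Ifi206 (0.90). Flt3 was nearest to Tnfsf14 (0.93), Siglece (0.92) and Tgfb1 (0.90). Cd209a was nearest to Noc2l (0.96), Ccr1 (0.95) and Batf (0.92). Xcr1 was nearest to Uck2 (0.90), Xpo6 (0.90) and Lama2 (0.90), and Zbtb46 to Afap1 (0.95), Fosl2 (0.95) and Ppp1r10 (0.94). Clec9a was nearest to Gtpbp2 (0.90), Map4k2 (0.86) and Ushbp1 (0.86). Clec10a was nearest to Eif4ebp1 (0.94), Slc22a4 (0.94) and Igkc (0.94). Without the 2 libraries farthest from the median of the member, these values stayed at 0.76 or above.

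Other genes used as markers or factors of these cells gave no call either. Some stood far above the 8 members in whole lung. Per kilobase of exon, control means were 158 CPM for Atp1b1, 134 for Klf4 and 75.4 for Bst2, against 11.3 for Clec9a. The part of dendritic cells in the values of the genes listed below was not tested. Of 17 genes for FLT3 signalling and dendritic cell transcription factors, 12 had the lower mean at 2 weeks against control (median log2 difference -0.13) and 7 at 5 weeks against control (median 0.03), and 0 passed. The smallest p at 2 weeks belonged to Klf4 (-0.87 ± 0.29, limma adjusted p = 0.41) and Nfil3 (-0.49 ± 0.18, adjusted p = 0.44), and at 5 weeks to Bcl6 (-0.19 ± 0.09) and Spi1 (0.51 ± 0.23), both with an adjusted p of 0.575. Irf8 averaged 70.7 ± 2.77 CPM in 5-week mice and 58.0 ± 9.90 CPM in 2-week mice, a log2 difference of 0.30 ± 0.10 (adjusted p = 0.327). Batf3 stood at 1.78 ± 0.09 CPM in 5-week mice, 1.96 ± 0.34 CPM in 2-week mice and 2.06 ± 0.37 CPM in controls.

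Of 13 further cDC1 genes tested, 9 had the lower mean at 2 weeks against control (median -0.16) and 7 at 5 weeks against control (median 0.00). The smallest p belonged to Naaa (-0.31 ± 0.10, limma adjusted p = 0.381) and Ifi205 (-0.72 ± 0.23, adjusted p = 0.4) at 2 weeks, and to Rab7b (-0.32 ± 0.12, adjusted p = 0.543) and Ifi205 (-0.56 ± 0.23, adjusted p = 0.554) at 5 weeks. Of 9 further cDC2 genes tested, 7 had the lower mean at 2 weeks against control (median -0.22), and 3 at 5 weeks against control (median 0.24). At 5 weeks against 2 weeks 9 of the 9 had the higher mean (median 0.44), 4 of them with an unadjusted limma p under 0.05 (10.9% of all genes). The smallest p there belonged to Itgam (0.92 ± 0.27, adjusted p = 0.288) and Sirpa (0.46 ± 0.14, adjusted p = 0.29), which macrophages and neutrophils also make. All 12 alveolar macrophage and all 7 neutrophil markers tested had the higher mean in that comparison too, and the part of those cells was not tested. Ltb (0.78 ± 0.24, adjusted p = 0.513) and Cd7 (0.58 ± 0.20, adjusted p = 0.517), with the smallest p at 5 weeks against control, are also made by lymphocytes. At 2 weeks Cd1d1 (-0.39 ± 0.23, adjusted p = 0.609) and Sirpa (-0.22 ± 0.14, adjusted p = 0.632) had the smallest.

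Of 14 further plasmacytoid genes tested, 8 had the lower mean at 2 weeks against control (median -0.05) and 4 at 5 weeks against control (median 0.15). The smallest p were those of Bst2 (0.19 ± 0.09, limma adjusted p = 0.557) and Lag3 (-0.33 ± 0.17, adjusted p = 0.578) at 2 weeks, and of Ly6d (1.03 ± 0.34, adjusted p = 0.517) and Atp1b1 (-0.25 ± 0.09, adjusted p = 0.543) at 5 weeks.

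Genes of mature, migrating dendritic cells held the smallest adjusted p of these lists in both comparisons with controls. Of 16 tested, 10 had the lower mean at 2 weeks against control (median -0.11) and 9 at 5 weeks against control (median -0.07), with 0 calls. Ccl22, a chemokine that draws CCR4-bearing T cells, had 8.10, 8.62, 9.37 and 14.4 CPM in the 2-week mice, against 18.4, 13.6, 15.4 and 15.5 CPM in the controls. Of the 2-week mice 3 lay below every control, and replicate 4 did not (log2 difference -0.61 ± 0.16, limma adjusted p = 0.244). In the 5-week mice Ccl22 had 9.95, 11.1, 8.93 and 11.6 CPM, every value below every control (-0.55 ± 0.16, adjusted p = 0.497), where 1.36% of all genes showed that direction. Ccl17, which shares that receptor, had a difference of -0.54 ± 0.15 at 2 weeks against control (limma adjusted p = 0.307). Ccr7, the receptor that guides dendritic cells and lymphocytes to lymph nodes, had 25.7, 24.1, 35.9 and 29.1 CPM in the 5-week mice, against 17.5, 15.5, 13.1 and 17.2 CPM in the controls. Every 5-week value lay above every control value, in a direction that 3.65% of all genes showed (0.81 ± 0.21, adjusted p = 0.393). Ccl5, a chemokine made by T and NK cells too, had a difference of 0.72 ± 0.19 (adjusted p = 0.452). The summed T cell markers given above and the 8 B cell markers (191 to 394 CPM in 5-week mice, 101 to 176 CPM in controls) also reached their highest values in 5-week mice, and their part in Ccr7 and Ccl5 was not tested.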

How the data were processed

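Total RNA of flash-frozen whole lung was sequenced from 12 mice. Per the submitters' processing notes, TopHat2, Partek and mm10 were used; no source used here states the counting step or its strand setting. The deposited table holds CPM per gene, summing to 1000000 in each library with an offset of 0.0001 added by the authors. Only 87.7% to 88.3% of low values lay within 0.1 of a whole read step, so reads were not recovered and no count model was used. CPM were tested as log2(CPM + 1) with limma 3.58.1 (R 4.3.3) over all 12 libraries, keeping genes whose mean reached 1 CPM, with a trended variance, Benjamini-Hochberg adjustment and a threshold of 0.05; fold changes of low genes are understated on that scale. Single genes were also compared by two-sided exact permutation (scipy 1.17.1). Each library is 1 mouse by its label, so errors are between mice. The fit was also run on simulated counts with the same relative spread set for every gene. These held no libraries apart in cell content, so they cannot show how the fit behaves with such libraries. Exon lengths came from a GRCm38 annotation matched by Ensembl ID, and promoters from RefSeq GRCm38.p6, which matched 6 of the 8 genes. The members and gene lists were chosen with earlier results of these data known. Beyond the members, the text names the 2 genes of smallest p per dendritic cell list and comparison with controls, the 3 genes most like each member (predicted genes skipped, and 1 gene not reported here), and the related lectins; Flt3l, Irf8, Batf3, Itgb7 and Itgam, and Sirpa and Ccl22 in a further comparison, were named after their values were seen. Alternatives changed the pseudocount, filter, scaling, library weights, variance moderation, groups fitted and libraries kept.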

Additional observations from a re-analysis of the deposited data

Results flagged for a closer look

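Over the 24 groups of 4 mice examined for the 8 genes, 3 had a mouse set apart from the other 3, where chance alone marks about 1 in 20. All 3 were 2-week mice. Zbtb46 was 50.9 CPM in replicate 2, with the others between 41.5 and 42.7 CPM. Clec9a was 48.8 CPM in replicate 3, with the others between 38.5 and 39.5 CPM. Siglech was 4.52 CPM in replicate 4, the library with the highest T cell and alveolar macrophage markers of its group, with the others between 2.06 and 2.47 CPM.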

How the results depend on the processing

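Each of the 24 differences of the 8 genes was recomputed with each of the 12 libraries left out in turn, under 9 other planned settings, and under 2 chosen after seeing the data. Of 546 alternative values 516 kept their direction and side of the threshold, 29 turned in sign, and 17 of the 24 differences never turned. The turns in settings other than a single library were Clec10a at 2 weeks against control (0.0469 without the 3 libraries apart on principal components), Clec10a at 5 weeks against control (-0.0237 with a pseudocount of 5, -0.0101 with median-of-ratios scaling, -0.0327 with quantile normalization, -0.14 with library weights, -0.10 without the 2 libraries apart on alveolar macrophage genes), Xcr1 at 5 weeks against 2 weeks (0.00296 with a pseudocount of 5, 0.0779 with weights, 0.13 without the 3 and 0.0267 without the 2 libraries) and Clec9a at 5 weeks against 2 weeks (0.0245 with weights, 0.11 without the 3). Leaving out single libraries moved the 5-week against control difference between -0.0336 and 0.21 for Flt3, -0.15 and 0.0158 for Itgae, and -0.22 and 0.36 for Clec10a, and the 5-week against 2-week difference between -0.0445 and 0.15 for Zbtb46, -0.12 and 0.12 for Xcr1, and -0.13 and 0.0291 for Clec9a. The only limma call among the 8 was Siglech at 5 weeks against 2 weeks (0.63) without the 2 libraries, 1 member where the fit to all 12 gave 0; the cause of these changes was not tested.

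With all 12 libraries weighted equally and the settings of the report, the number of genes called was 0 in every comparison. It was 18 with library weights and 239 without the 2 libraries at 2 weeks against control, 881 and 575 at 5 weeks against 2 weeks, and 286 and 404 for any difference. Genes tested were 15562 with library weights and 15583 without the 2 libraries. Leaving out 1 library gave 0 to 24, 0 to 1, 0 to 386 and 0 to 132 genes at 2 weeks against control, 5 weeks against control, 5 weeks against 2 weeks and for any difference. The 386 and 132 came without 2-week replicate 4 and the 24 without 5-week replicate 3. A filter of 5 CPM removed Xcr1 and Siglech. No paired analysis was possible because the mouse numbers of the groups are not shared. With 4 mice a group, 95% intervals were wide for some genes. At 2 weeks against control they ran from -0.52 to 0.30 on the log2 scale for Siglech and from -0.95 to 0.23 for Clec10a.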
